A study of Mus musculus with 35 samples.

Results

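Pancreatic lymph nodes of female NOD/LtJ (NOD) mice aged 20 weeks were compared with those of NOD mice aged 16 weeks through the strain ratio, the log2 ratio of NOD signal over control signal on the same array. The members were the arrays titled for these ages, 5 at 20 weeks and 6 at 16 weeks, which made 11 of the 35 arrays of the series. The pancreatic lymph node drains the pancreas. It is where antigens of the insulin-producing beta cells are presented to T cells, and where the autoimmune response of the NOD mouse is primed. NOD females develop insulitis first and overt diabetes later, as the beta cells are lost. RNA from such a node can carry transcripts of lymphocytes, of the stroma and vessels of the node, of blood cells and of any adjoining pancreas.

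NOD RNA was labelled with Cy3 and RNA of NOD.B10Sn-H2b/J (NOD.B10) mice with Cy5 on every array of this 2-colour Agilent whole mouse genome platform. NOD.B10 mice carry another major histocompatibility complex (MHC) haplotype on the NOD background and served as the non-diabetic control. The NOD channel was labelled diabetic and the NOD.B10 channel control on all 11 arrays, so the labelled disease state was the same at both ages. The study's description names control RNA of female NOD.B10 mice in 2 groups of 10, aged 10 days and 20 weeks, and the labels do not tell which was hybridised on which array. Dyes were not exchanged. Nothing in the labels states that the arrays of an age came from separate animals, so p-values measure the spread between these arrays, which may be technical. Control RNA was pooled, so p-values of the control channel do not measure a spread between control mice. A small control p beside a larger NOD p therefore does not rank the 2 changes.

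A change of the strain ratio between ages can come from the NOD channel, from the control channel or from both. Each difference below is 20 weeks minus 16 weeks on the log2 scale, and it equals the change of the normalised NOD signal minus the change of the normalised control signal. A gene is said to have risen or fallen where the adjusted p of limma's test, fitted over all 35 arrays, was under 0.05. Of the signals of an array, 42.1% to 82.9% were well above background in the NOD channel at 16 weeks and 47.3% to 60.3% at 20 weeks. The corresponding control shares were 38.0% to 79.3% and 38.4% to 64.4%. The number of arrays limits the precision. Of a list of 10 lymph node markers 9 were measured, and each of these exceeded background on all 11 arrays for NOD and control alike, among them Ccl19, Cxcl13, Ms4a1 and Glycam1.

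The strain ratio differed between the ages for 2465 of 28436 genes tested (8.67%). It was higher at 20 weeks for 1051 genes (3.7%) and lower for 1414 (4.97%), and 1020 genes (3.59%) differed by at least 1 log2 unit, 606 of them higher and 414 lower. In the NOD channel alone 111 genes rose (0.39%) and 39 fell (0.137%). These 150 NOD calls were 22 with only the 11 arrays in the model and 11 without replicate 2 at 20 weeks. Of the genes named below as called in NOD, Cd5l, Ciita and Rraga passed without that array, and for the others the NOD adjusted p was then 0.0527 to 0.195. In the control channel alone 72 rose (0.253%) and 190 fell (0.668%). The values of the 2 ages did not overlap for 2012 genes (7.08%), of which 1233 were among the 2465. Over all genes tested the median difference was -0.05 for the ratio, -0.005 for the NOD signal and 0.06 for the control signal.

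The NOD part was the larger one in 1861 of the 2465 genes (75.5%) and the control part in 604, against a larger NOD part in 60.4% of all genes tested. Of these genes 131 were also called in the NOD channel alone, 145 in the control channel alone, 15 in both and 2174 in neither. The control part made up a median 0.313 of the ratio difference, with quartiles of 0.138 and 0.496. In 2123 of the 2465 the channels moved in opposite directions (86.1%, against 42.1% of all genes tested), a share that choosing genes by their ratio raises. Among genes with a higher ratio at 20 weeks the median difference was 1.09, with a NOD change of 0.86 and a control change of -0.31. Among those with a lower ratio it was -0.81, with -0.53 and 0.29.

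**Figure D1:**
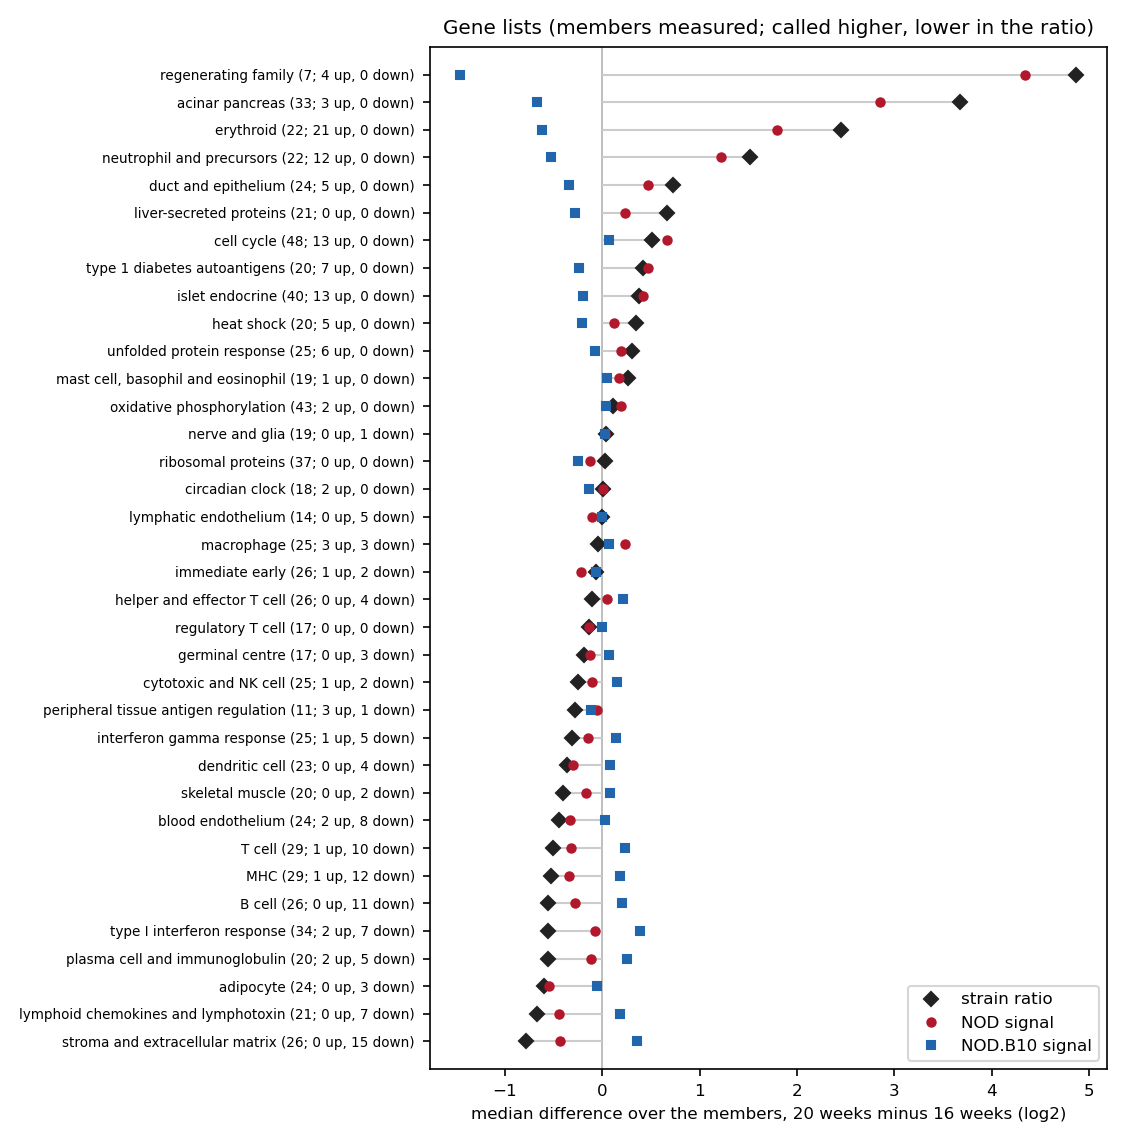
Median difference between 20 and 16 weeks over the measured members of each of 36 gene lists, for the strain ratio (black), the NOD signal (red) and the NOD.B10 signal (blue), on the log2 scale. Regenerating family, acinar, erythroid and neutrophil genes lie at medians of 4.87, 3.67, 2.46 and 1.52 for the ratio, whereas stroma lies at -0.78, and the control medians lie on the opposite side of 0 in each of these 5 lists.

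An alternative background correction and normalisation (normexp with loess) moved the median closer to 0 by over 1.5 times in 16 of the 23 lists whose median was at least 0.3 in size, and changed the sign of none of the 23. The neutrophil median was then 0.45 with 11 of 22 genes higher, that of stroma -0.43 with 9 of 26 lower, that of islet genes 0.10 with 12 of 40 higher, and that of duct genes 0.17 with 5 of 24 higher. Counts of list members below stand against 3.7% of all genes higher and 4.97% lower in the ratio. With only the 11 arrays in the model fewer genes were called, 530 higher and 728 lower of 28436. In that fit 6 of 26 stroma, 4 of 29 MHC, 4 of 29 T cell and 1 of 24 blood endothelial genes were lower. Other lists moved less, with 19 of 22 erythroid and 12 of 40 islet genes higher and 9 of 26 B cell genes lower.

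The genes whose ratio rose most encode pancreatic secretory stress proteins and islet hormones. The regenerating (Reg) family comprises secreted lectin-like proteins of the exocrine pancreas and gut that are induced by pancreatic injury and inflammation. Of its 7 measured members 4 rose and none fell, with a median difference of 4.87 over the 7. The Reg3a ratio ran from -8.56 to -5.53 (median -6.84) on the 6 arrays at 16 weeks. At 20 weeks the Reg3a ratios were -1.01, 1.27, 1.29, 2.97 and 1.78, so that the ages did not overlap. Its difference was 8.07 ± 1.30 (SE; adjusted p = 0.000205), of which the NOD signal contributed 4.39, and the control signal fell by 3.68. The control signal of Reg3a lay between 14.34 and 15.06 at 16 weeks and between 11.03 and 11.21 at 20 weeks, a fall with an adjusted p of 1.06e-14, while the NOD change alone missed the threshold (adjusted p = 0.125). At 16 weeks 4 of the 6 NOD spots of Reg3a exceeded background.

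Reg3b behaved alike, with ratios between -9.46 and -5.35 (median -7.32) at 16 weeks and of -2.49, -0.53, 0.02, 2.72 and 1.46 at 20 weeks. The Reg3b difference was 7.49 ± 1.71 (adjusted p = 0.00547), with a NOD part of 5.04, and its control signal fell by 2.45. For Reg2 the control spot was saturated on all 6 arrays at 16 weeks, so its control signal there is a lower bound. The size of the Reg2 difference, 9.26 ± 1.78 (adjusted p = 0.00115), is therefore not exact. The ratio of Reg2 lay between -13.01 and -5.96 at 16 weeks and between -0.64 and 0.77 at 20 weeks, without overlap. Reg3d rose by 4.65 ± 1.47 (adjusted p = 0.0426), but its values overlapped between the ages.

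Islet endocrine genes rose in 13 of 40 measured members, and none fell. Ins2, which encodes the principal mouse insulin, had ratios between -7.32 and -2.04 (median -6.84) at 16 weeks. At 20 weeks the Ins2 ratios were 2.21, 1.78, -3.54, 1.0 and 1.82. The fifth array at 16 weeks (replicate 5) and the third at 20 weeks (replicate 3) stood apart from the other arrays of their age, and because of them the groups overlapped. The Ins2 difference was 6.79 ± 1.25 (adjusted p = 0.000774), a 111-fold change of the ratio. Its control signal fell by 2.96 (adjusted p = 7.24e-09), from a range of 15.56 to 16.19 to one of 12.66 to 13.54, and its NOD signal changed by 3.83 with an adjusted p of 0.166. A further Ins2 probe differed by 6.42. Ins1, the other mouse insulin gene, showed ratios between -6.05 and -1.47 (median -4.91) at 16 weeks and of 2.63, 2.45, -1.38, 1.35 and 2.23 at 20 weeks. The Ins1 ranges did not overlap and differed by 6.07 ± 1.0 (adjusted p = 0.000264). The same pair of arrays was nearest to the other age.

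The Ins1 promoter is shown because this gene had one of the highest differences under the naming rule, and its 250 bases before the start site came from RefSeq (GRCm38.p6). Capitals mark the E-box CATCTG, the letters to which basic helix-loop-helix factors of beta cells can bind, searched on both strands.
Ins1 (chr19:52264047-52264296, plus strand): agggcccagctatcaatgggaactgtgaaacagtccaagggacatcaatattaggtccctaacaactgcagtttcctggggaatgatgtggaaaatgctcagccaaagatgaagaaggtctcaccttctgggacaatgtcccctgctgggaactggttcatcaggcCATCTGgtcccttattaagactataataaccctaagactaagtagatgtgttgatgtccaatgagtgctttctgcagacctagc
CATCTG occurred in 3 of 13 promoters of islet genes with a higher ratio (23.1%) and in 4745 of 32851 of all (14.4%).

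Gcg, the glucagon precursor of alpha cells, separated the ages on every array. Its NOD spot exceeded background on 4 of 6 arrays at 16 weeks. Its ratio ran from -6.67 to -5.01 (median -5.57) at 16 weeks and was -0.14, 0.58, 0.18, -0.82 and -0.20 at 20 weeks, a difference of 5.67 ± 0.87 (adjusted p = 0.000146). The control part of Gcg was a fall by 3.11 (adjusted p = 1.56e-14) and the NOD part 2.56 (adjusted p = 0.17). A further Gcg probe differed by 0.52 and did not pass. Sst, the somatostatin gene of delta cells, rose by 3.31 with a control fall by 1.93, and G6pc2, a glucose-6-phosphatase of beta cells and a target of autoreactive T cells, by 3.89 with a control fall by 2.31. Their NOD spots exceeded background on only 3 and 2 of 6 arrays at 16 weeks, so the size of the NOD part is uncertain. Pyy (3.16) and Chga (4.67), which encodes the granule protein chromogranin A, rose with control falls of 1.86 and 2.38. Chga had a value on 5 arrays at 16 weeks. Its NOD signal there had a median of 7.10, near the 7.02 of the dim gene Resp18, so the size of its NOD part is uncertain. Chgb and Resp18 passed too, but the NOD spot of each exceeded background on 1 of 6 arrays at 16 weeks, so no size is given for them. A further Pyy probe differed by 1.20 and did not pass. Iapp, the islet amyloid gene, gave 1.20 ± 0.40 and missed the threshold (adjusted p = 0.0588). In the control channel 13 of the 40 islet genes fell, against 0.668% of all genes, and none moved past the threshold in the NOD channel. Of the 20 listed autoantigens of type 1 diabetes that were measured, 7 rose, all but Reg2, Car2 and Ica1 being islet genes already named.

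The control signal of Gcg was tight within an age and differed between the arrays of the ages across the whole series. For Gcg the mean control signal was 10.95 at 10 days, 7.07 at 4 weeks, 14.13 at 8 weeks, 13.36 at 12 weeks, 13.61 at 16 weeks and 10.51 at 20 weeks, with an SD of at most 0.42 within an age. Other islet genes were less tight, and the control signals of Sst ran from 8.95 to 10.91 and those of G6pc2 from 9.23 to 11.32 at 16 weeks. The step of the Gcg ratio from 16 to 20 weeks thus held a control part that passed the test and a NOD part that did not. The NOD signals of Gcg nevertheless did not overlap, with 6.96 to 8.77 at 16 weeks and 9.93 to 10.93 at 20 weeks. Those of Ins1 and Ins2 did overlap. The missed threshold therefore does not show that the NOD signal of Gcg was unchanged. Fewer cells of a type and less RNA per cell cannot be told apart in such bulk samples, nor, in the control, from a change of pool.

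**Figure D2:**
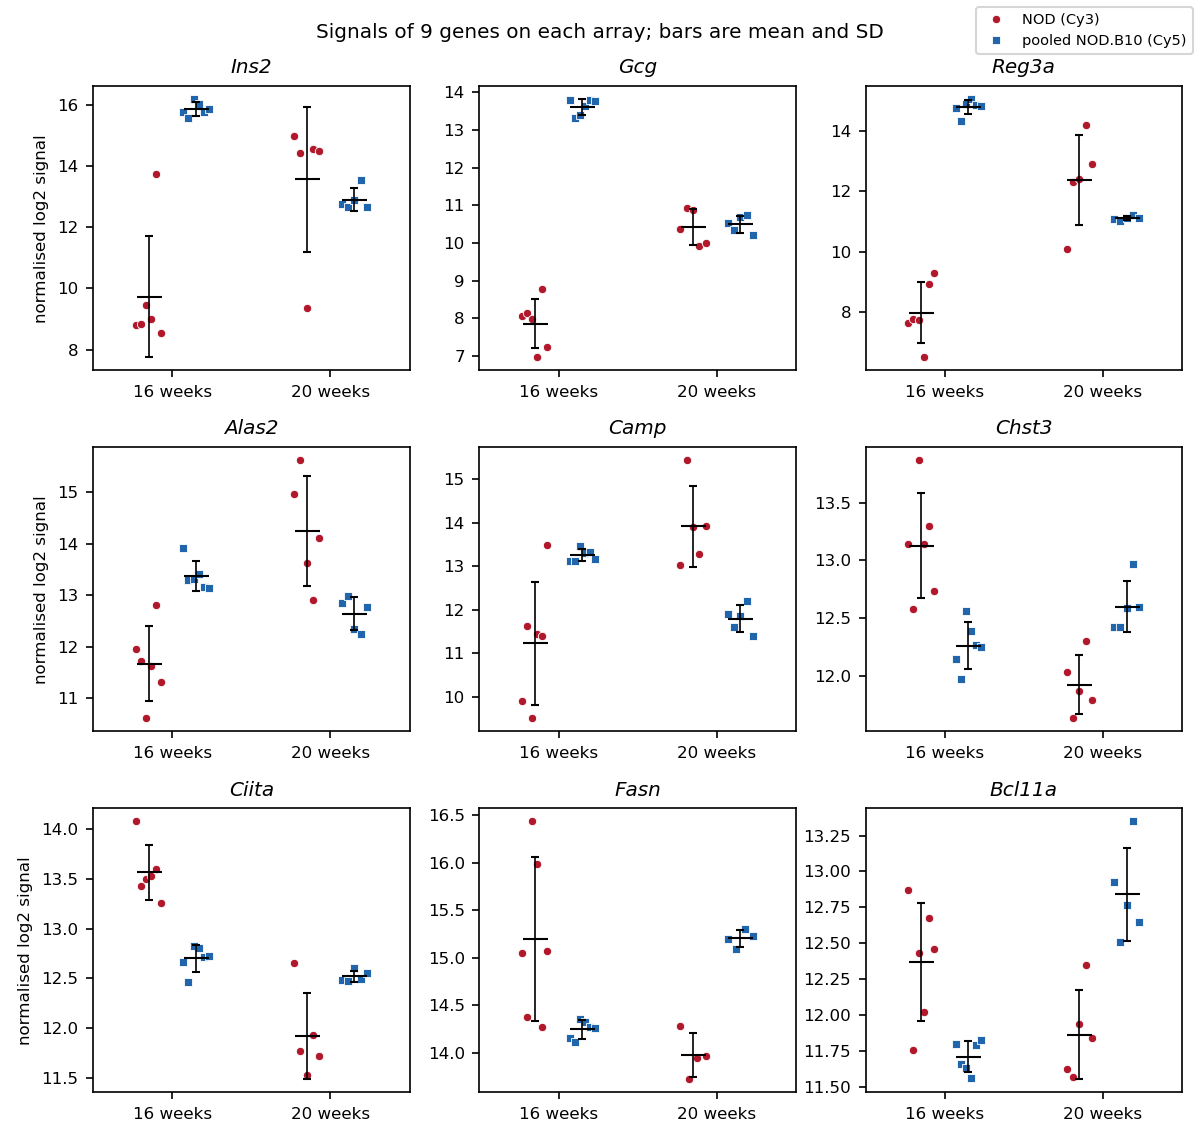
Normalised log2 signal of 9 genes on each array at 16 and 20 weeks, in the NOD channel (red circles) and in the pooled NOD.B10 channel (blue squares), with the mean and SD as bars. The control squares of Gcg drop from about the 13.31 to 13.79 range to 10.21 to 10.74 while its NOD circles rise, whereas for Chst3 and Ciita the NOD circles carry most of the change.

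Acinar genes encode digestive enzymes and the factors that maintain exocrine cells. Their difference was positive, called or not, in 32 of 33 measured members, against 44.8% of all genes, but with a large spread. The mean acinar ratio of an array, taken over the 23 members with a value on all 35 arrays, ran from -7.04 to 0.33 (median -2.95) at 16 weeks. At 20 weeks it was -1.48, -0.014, 1.19, -0.077 and 1.25, and the ranges overlapped through replicate 5 at 16 weeks. By limma 3 members passed, Gp2 (4.49 ± 1.45), which encodes the zymogen granule membrane protein, and the transcription factors Nr5a2 (1.49 ± 0.40) and Ptf1a (2.33 ± 0.76). With the scanner as a block 25 acinar genes passed, at a median of 4.90 against 3.67, and 12 of 31 did so when only genes with all 11 NOD and all 11 control spots over background were tested. In the control channel 9 members fell. The control spot was saturated on all arrays at 16 weeks for 14 of the 33 acinar genes and on all arrays at 20 weeks for 12, so their control signals are bounds there. Adding the mean acinar ratio of each array to the model left 780 of the 28436 genes called, 766 of them among the 2465. With the same term and the 11 arrays alone limma called 4 genes, and 2515 had an unadjusted p under 0.05. The 4 were Gcg at 5.39 (adjusted p = 0.00918), Reg3a at 7.15 and Reg2 at 6.23 (adjusted p = 0.0454 for both), and a transcript without a gene symbol that was lower. The saturated control spots of Reg2 and of the acinar genes enter this fit at their values, so these sizes are not exact.

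Genes of ducts and other epithelia rose too. Of 24 measured duct and epithelium genes 5 rose, including the keratin Krt18 (4.21 ± 1.22), the junction protein Cldn3 (1.97 ± 0.50) and the tetraspanin Tspan8 (1.89 ± 0.35). The 5 were 2 after the acinar term. Deaf1, a transcription factor that has been linked to the expression of tissue antigens in lymph node stroma, showed a difference of 3.61 ± 1.12 (adjusted p = 0.0395) at its brightest probe. Its ratios at that probe were between -6.32 and -0.08 (median -3.71) at 16 weeks and -2.0, -0.31, 1.48, -0.27 and 1.11 at 20 weeks, which differed from the mean acinar ratio of the same array by -1.09 to 0.72. The 2 other Deaf1 probes differed by 0.06 and 0.60, neither of which passed. Aire, which drives the expression of tissue antigens in the thymus and in rare node cells, had ratios of 0.36 to 1.20 at 16 weeks and 0.00 to 0.62 at 20 weeks and did not pass (-0.45 ± 0.22, adjusted p = 0.232).

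**Figure D3:**
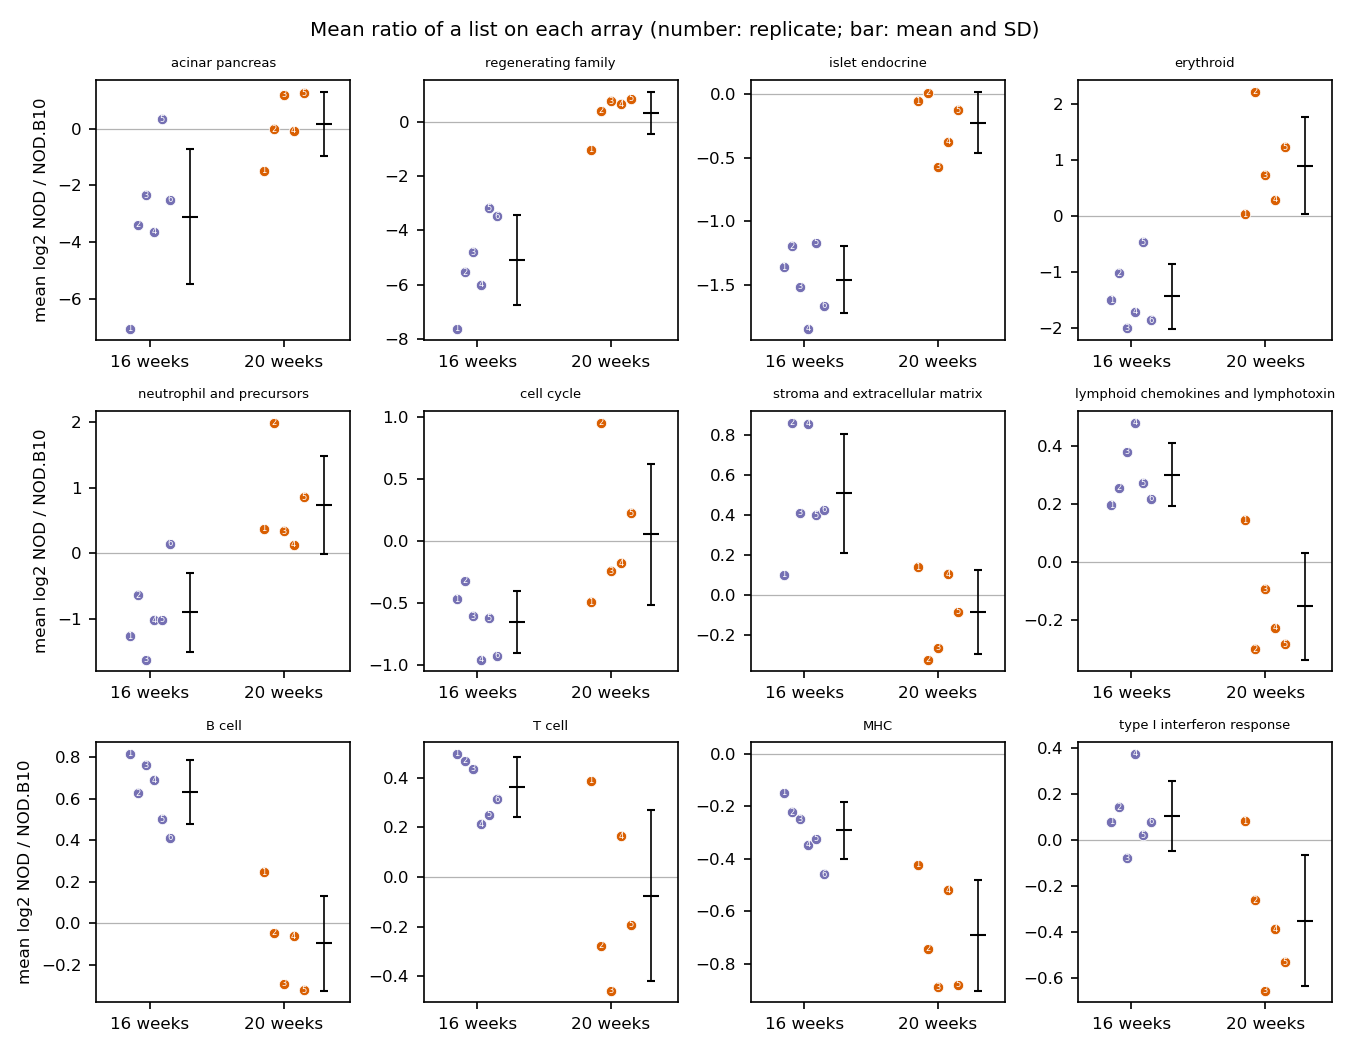
Mean log2 NOD over NOD.B10 ratio of 12 gene lists on each array at 16 weeks (purple) and 20 weeks (orange), numbered by replicate, with the mean and SD of an age beside the points. The islet and erythroid means do not overlap between the ages, and the acinar means overlap through replicate 5 at 16 weeks (0.33). Replicate 1 at 20 weeks lies within the 16-week range for T cell (0.39), cell cycle (-0.49) and stroma genes (0.14). It does so for MHC (-0.42) and type I interferon genes (0.08) too, and lies just below that range in the lymphoid chemokine list (0.14). Replicate 4 at 20 weeks lies within the 16-week range for neutrophil (0.13) and stroma genes (0.10).

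Erythroid genes formed the list with the largest share of called members, 21 of 22, all higher at 20 weeks, with a median difference of 2.46. Red cell precursors express the enzymes of haem synthesis, globins and a membrane skeleton of spectrin and band 3, under factors such as GATA1 and KLF1. The NOD part was the larger one at the median, 1.80 against a control change of -0.62, and 12 members rose in the NOD channel alone while 8 fell in the control channel. Without replicate 2 at 20 weeks none of the 12 was called in NOD by limma. The exception, the embryonic globin Hbb-bh1, differed by 0.27. The mean erythroid ratio of an array over 19 such members was -2.01 to -0.48 (median -1.62) at 16 weeks and 0.026, 2.21, 0.72, 0.28 and 1.22 at 20 weeks, without overlap. After the acinar term 18 members were still called, with a median of 2.15.

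Promoters of erythroid genes that rose in the NOD channel are shown because these genes moved together and share a known class of regulator, the GATA factors. The 250 bases before the start site came from RefSeq (GRCm38.p6), and capitals mark the letters AGATAA on either strand, which read TTATCT on the reverse strand.
Alas2 (chrX:150547167-150547416, plus strand): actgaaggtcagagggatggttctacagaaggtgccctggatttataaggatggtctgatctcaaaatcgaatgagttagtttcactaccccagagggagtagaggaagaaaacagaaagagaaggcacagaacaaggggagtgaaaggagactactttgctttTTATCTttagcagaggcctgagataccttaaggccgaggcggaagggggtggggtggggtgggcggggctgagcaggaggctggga
Trim10 (chr17:36869324-36869573, plus strand): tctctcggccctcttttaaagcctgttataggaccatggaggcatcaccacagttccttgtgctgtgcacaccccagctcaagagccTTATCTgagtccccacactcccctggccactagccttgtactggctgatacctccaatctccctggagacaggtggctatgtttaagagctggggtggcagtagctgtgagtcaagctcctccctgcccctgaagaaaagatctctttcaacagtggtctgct
Tal1 (chr4:115056176-115056425, plus strand): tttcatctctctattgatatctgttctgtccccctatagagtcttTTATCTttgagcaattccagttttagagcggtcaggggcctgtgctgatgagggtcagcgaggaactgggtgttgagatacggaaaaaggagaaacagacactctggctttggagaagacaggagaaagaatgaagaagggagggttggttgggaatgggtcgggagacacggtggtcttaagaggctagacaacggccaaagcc
AGATAA occurred in 6 of 10 promoters of the 9 such genes found in the table, out of 12 genes, and in 3281 of 32851 promoters of all genes (9.99%). The second listed Tal1 promoter held no match. A match is a run of letters and not a measured binding site.

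Alas2, the first enzyme of haem synthesis in red cells, had ratios between -2.71 and -0.34 (median -1.80) at 16 weeks. At 20 weeks the Alas2 ratios were 2.12, 2.63, 1.29, 0.65 and 1.34, all above those at 16 weeks. The Alas2 difference was 3.31 ± 0.51 (adjusted p = 0.000146), with a NOD rise of 2.57 (adjusted p = 0.0166, or 2.23 and 0.0981 without replicate 2) and a control change of -0.73 (adjusted p = 0.326). Trim10, which acts in terminal red cell differentiation, rose by 3.51 ± 0.49 (adjusted p = 5.98e-05), 2.64 of it in NOD. Tal1, a transcription factor of blood and vessel development, rose by 2.47 ± 0.39, 1.90 of it in NOD. The anion exchanger Slc4a1 (4.12), the blood group protein Rhd (4.08) and the membrane anchor Ank1 (3.59) rose in both the ratio and the NOD channel and fell in the control channel by 1.05, 0.88 and 1.02. Of 4 further Ank1 probes 1 passed, at 2.51. Several genes outside the list that precursors of red cells or platelets express moved in the same direction, namely Nfe2 (3.26), Car2 (2.92) and the platelet glycoprotein Gp9 (2.21). For Gp9 the control changed by 0.07, so the rise lay in NOD (2.28, adjusted p = 0.0117).

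Neutrophil and precursor genes rose in 12 of 22 measured members, and none fell. These genes encode granule proteins made by developing and mature neutrophils. Camp, the cathelicidin antimicrobial peptide, had ratios between -3.97 and 0.32 (median -1.91) at 16 weeks and of 1.14, 3.85, 2.03, 1.07 and 2.55 at 20 weeks. Replicate 6 was the highest 16-week array for Camp, and it stayed below all arrays at 20 weeks. The Camp difference was 4.16 ± 0.60 (adjusted p = 9.49e-05), of which 2.70 was NOD and a fall by 1.46 the control. S100a8 and S100a9, which form calprotectin, rose by 3.92 ± 0.59 and 3.50 ± 0.57. Ngp (3.01), Chil3 (3.79) and the protease gene Ctsg (3.07) also rose, with control falls of 0.82, 1.23 and 1.1. For Ctsg replicate 6 at 16 weeks (0.77) lay within the range at 20 weeks (0.38 to 3.18). In the NOD channel alone 3 members rose, and in the control channel 9 fell.

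Cell cycle genes rose in 13 of 48 measured members, and 44 of the 48 differences were positive, against 44.8% of all genes. Here the control list median moved by 0.07 and the NOD median by 0.66. Mki67, the proliferation antigen Ki-67, had ratios between -1.57 and -0.56 (median -1.11) at 16 weeks and of -0.44, 2.11, 0.57, 0.51 and 1.03 at 20 weeks, a difference of 1.81 ± 0.36 (adjusted p = 0.00157). Mki67 rose in the NOD channel by 1.54 (adjusted p = 0.0459), and Ccna2, cyclin A2 of S phase, did so by 1.54 (adjusted p = 0.0325). Ccne2, a cyclin of S phase entry, separated the ages fully, from -0.59 to 0.01 at 16 weeks and 0.92 to 2.15 at 20 weeks (1.61 ± 0.28), although its control spot exceeded background on 4 of 6 and 1 of 5 arrays. Replicate 2 at 20 weeks was the highest array for Mki67, Ccna2, Ccne2, the erythroid mean and Camp. Without it 6 cell cycle, 20 erythroid and 11 neutrophil genes were called.

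Macrophage genes did not move as a list, with 3 of 25 higher and 3 lower. Cd5l, a secreted macrophage protein, rose by 2.09 ± 0.34 (adjusted p = 0.000202) from a range of -1.94 to -0.71 to 1.75, 1.44, 1.0, 0.38 and 0.66. Its rise lay in NOD (2.31, adjusted p = 0.00129), since its control signal changed by 0.22. Adgre1, the F4/80 antigen, rose by 0.88 ± 0.26, and its second probe differed by 0.40 without passing. The lymph node sinus macrophage gene Siglec1 (-0.88), the lysosomal gene Gpnmb (-1.10) and the lipid carrier gene Apoe (-0.72) fell. Emilin2, a matrix glycoprotein gene, rose by 1.72 ± 0.45, with a NOD change of 2.33 (adjusted p = 0.00647).

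Genes of protein folding stress rose in smaller steps. Of 20 measured heat shock genes 5 rose, among them Hspa8 (1.06 ± 0.21) and Hspa1a (1.55 ± 0.40), and none fell. Of 3 further Hspa1a probes 1 passed, at 1.33. Of 25 genes of the unfolded protein response 6 rose, among them Atf4 (1.03 ± 0.16), a stress-induced transcription factor, and Herpud1 (1.48 ± 0.30), and none fell. Hspa8 ratios lay between -0.07 and 0.51 at 16 weeks and between 0.90 and 1.45 at 20 weeks. For Atf4 and Hspa1a the control parts, falls by 0.55 and 0.79, were larger than the NOD parts of 0.48 and 0.76. Oxidative phosphorylation (2 of 43 higher) and ribosomal protein genes (0 of 37 by limma, 3 with an unadjusted p under 0.05) stayed near the background.

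Turning to genes with a lower ratio at 20 weeks, of 26 measured B cell genes 11 fell, none rose, and the median difference was -0.55, with -0.28 from NOD and 0.20 in the control. Fcer2a, the low affinity IgE receptor CD23 of follicular B cells, had ratios between 0.74 and 1.34 (median 0.99) at 16 weeks and of 0.32, -0.51, -0.99, -0.13 and -0.78 at 20 weeks. These did not overlap, and the difference was -1.41 ± 0.21 (adjusted p = 0.000116). Fcer2a fell in the NOD channel too, by 1.24 (adjusted p = 0.0217). Cd79b, part of the B cell receptor, fell by 0.88 ± 0.15, with 0.50 of it from a higher control signal. The IgM receptor gene Fcmr (-0.87 ± 0.16), the TACI gene Tnfrsf13b (-0.99 ± 0.18) and Ighm (-0.69 ± 0.17) fell. A second Tnfrsf13b probe differed by -0.35 and did not pass. Cd79a gave -0.56 ± 0.20 and missed the threshold (adjusted p = 0.0797) although its values did not overlap. After the acinar term 8 B cell genes were called. Bcl11a, a transcription factor needed for B cell development, fell by 1.64 ± 0.31 (adjusted p = 0.00103), with 1.13 of it from a rise of the control signal (adjusted p = 3.11e-06). Of 3 further Bcl11a probes 1 passed, at -1.02. In the germinal centre list 3 of 17 genes fell, including Bcl6 (-0.69 ± 0.17), the factor that directs germinal centre B cells. Plasma cell genes split, with 5 of 20 lower and 2 higher, the latter being Xbp1 (1.16 ± 0.29) and Derl3 (1.69), which also serve secretion in exocrine cells.

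T cell genes fell in 10 of 29 measured members and rose in 1. Bcl11b, which maintains T cell identity, had ratios between 0.53 and 1.27 at 16 weeks and of 0.47, -0.70, -0.93, 0.17 and -0.52 at 20 weeks (-1.15 ± 0.22, adjusted p = 0.00116). Thy1 fell by 0.94 ± 0.19 and Tcf7, a factor of naive and memory T cells, by 0.74 ± 0.18. Their second probes differed by -0.70 and -0.41 without passing. The member that rose was Ptpn22, a lymphoid phosphatase gene known for risk variants in autoimmune diabetes, at 1.02 ± 0.21 (adjusted p = 0.00218), although its ranges of -2.46 to -1.33 and -1.57 to -0.44 overlapped. After the acinar term 2 T cell genes were called lower and 1 higher, with a list median of -0.38 against -0.50 without it. Cd3e did not pass, and its 2 probes had opposite signs (0.45 and -0.52). Of 26 helper and effector T cell genes 4 fell, with Ccr6, a homing receptor, at -0.97 ± 0.15. Which cells of the node carried the Ccr6 signal was not tested. By limma no regulatory T cell gene of 17 was called, 3 had an unadjusted p under 0.05, and none separated the ages. Foxp3 gave -0.90 ± 0.32 (adjusted p = 0.0767), and its control spot exceeded background on 3 of 6 and 3 of 5 arrays. Ctla4 gave 0.60 ± 0.28, with a control signal above background on 2 of 6 arrays at 16 weeks and on none of 5 at 20 weeks. Il2 and Ifng, cytokines of activated T cells, gave -0.15 ± 0.35 and -0.32 ± 0.32, and their second probes 0.44 and -0.56.

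MHC genes fell in 12 of 29 measured members and rose in 1, H2-T24 at 0.82. A probe may bind the haplotypes unequally. The class I gene H2-D1 fell by 0.55 ± 0.18 (adjusted p = 0.0476), and H2-K1 gave -0.45 ± 0.29 (adjusted p = 0.388). In class II, H2-Ab1 fell by 0.59 ± 0.16 (adjusted p = 0.0178) at its brightest probe, and its 3 further probes (-0.50, -0.46 and -0.55) did not pass, while H2-Eb1 (-0.71 ± 0.26, adjusted p = 0.0818) and H2-Aa (-0.15 ± 0.33, second probe 0.10) did not pass. Cd74, the invariant chain that chaperones class II, fell by 0.67 ± 0.17, from 1.70 to 2.22 at 16 weeks to 0.99 to 1.66 at 20 weeks. After the acinar term 1 MHC gene was called, with a list median of -0.42 against -0.52 without it.

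Ciita, the master regulator of class II genes, fell in NOD. The Ciita ratio ran from 0.53 to 1.42 (median 0.80) at 16 weeks and was 0.17, -0.70, -1.08, -0.56 and -0.84 at 20 weeks, a difference of -1.47 ± 0.24 (adjusted p = 0.000274). The fall was in NOD, by 1.65 (adjusted p = 0.0023), with a control change of -0.18. Irf8, a factor of dendritic cells and B cells, was the tightest example, with ratios of 0.65 to 0.89 at 16 weeks and of -0.31 to -0.08 at 20 weeks. Irf8 fell by 0.92 ± 0.15 in the ratio and by 0.80 in NOD (adjusted p = 0.0322), and a second Irf8 probe fell by 1.16. In the interferon gamma list 5 of 25 genes fell and Socs1 rose, and in the dendritic cell list 4 of 23 fell, among them the plasmacytoid gene Siglech (-1.52).

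Type I interferon response genes went both ways, with 7 of 34 lower and 2 higher. Their list median of -0.55 was made of -0.08 in NOD and 0.39 in the control, where 7 members rose. Dhx58, which encodes the RNA sensor LGP2, had ratios between 0.52 and 0.95 at 16 weeks (5 arrays) and of 0.06, -0.41, -0.86, -1.19 and -0.39 at 20 weeks. The control rise of Dhx58, 0.77 (adjusted p = 0.00284), made up 0.605 of its difference of -1.28 ± 0.23. For Usp18, a feedback inhibitor of the interferon receptor, and Ifit3, an antiviral effector, the control shares were 0.723 and 0.756 of -1.04 ± 0.24 and -1.47 ± 0.40. A second Dhx58 probe differed by 0.20. The 2 genes that rose, Rsad2 (2.88 ± 0.39, adjusted p = 4.78e-05) and Isg20 (1.83 ± 0.29), did so in the NOD channel, by 2.05 (adjusted p = 0.00607) and 1.72 (adjusted p = 0.00561). Of 2 further Rsad2 probes 1 passed, at 2.14. Rsad2 ratios were between -2.34 and -0.53 at 16 weeks and 0.74, 2.66, 0.96, 0.30 and 1.54 at 20 weeks. The Rsad2 order of the 20-week arrays was that of the erythroid mean, except that replicates 1 and 4 changed places, and the part of erythroid cells in it was not tested.

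Genes of node architecture and lymphocyte entry fell in part. Of 21 lymphoid chemokine and lymphotoxin genes 7 fell, and none rose. Glycam1, a sulphated ligand for L-selectin on high endothelial venules, had ratios between 0.57 and 0.92 (median 0.76) at 16 weeks and of -0.08, -1.66, -1.14, -0.35 and -1.11 at 20 weeks, a difference of -1.63 ± 0.25 (adjusted p = 0.000146). Madcam1, the mucosal addressin, fell by 1.21 ± 0.23, and the lymphotoxin genes Lta and Ltb, which maintain node architecture, by 1.03 ± 0.21 and 1.09 ± 0.22. Ltb fell in NOD by 1.17 (adjusted p = 0.0382). The chemokine gene Ccl2 fell by 1.35 ± 0.35, though at 20 weeks replicate 1 (1.38) lay within the range of 1.37 to 2.28 at 16 weeks and replicate 3 (1.36) just below it. Chst3, a chondroitin sulphotransferase gene, had the smallest p of the ratio test among the genes named here, 7.1e-06 after adjustment. Its ratios lay between 0.49 and 1.31 at 16 weeks and between -0.81 and -0.40 at 20 weeks, and it fell by 1.55 ± 0.17 in the ratio and by 1.21 in NOD. A second, dimmer Chst3 probe differed by 0.12 and did not pass.

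Stroma and extracellular matrix genes fell in 15 of 26 measured members, and none rose. The collagen gene Col6a3 had ratios between 0.59 and 2.09 (median 1.08) at 16 weeks and of -0.25, -0.38, -0.94, 0.27 and -0.27 at 20 weeks (-1.51 ± 0.35, adjusted p = 0.00622). Its 2 further probes differed by 0.70 and 0.05 without passing. Col6a1 fell by 1.84 ± 0.35, 1.40 of it in NOD (adjusted p = 0.0156), but only 2 of its 6 control spots at 16 weeks exceeded background. The basement membrane gene Col4a1 (-0.83 ± 0.17, second probe -0.40 and not passing), the muscle filament gene Des (-1.32 ± 0.30) and Col3a1 (-1.68) fell as well. After the acinar term 5 members were called, with a median of -0.81 against -0.78 without it. Of 24 blood endothelial genes 8 fell, including Emcn (-0.83 ± 0.17), and Aqp1 and Vcam1 rose. With only the 11 arrays in the model 1 of the 24 fell and 1 rose. Of 14 lymphatic endothelial genes 5 fell, including the connexin gene Gja4 (-0.99 ± 0.14), whose ranges of 0.15 to 0.66 and -0.69 to -0.49 were well apart. The lymphatic list did not move as a whole, with a median of -0.005 and 7 of the 14 differences positive, against 44.8% of all genes. The homeobox gene Meox1 fell by 1.60 ± 0.22, 1.33 of it in NOD (adjusted p = 0.0134), and its second probe differed by -0.68 without passing.

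Under the naming rule the lowest ratio differences were those of 3 lipid synthesis genes, Dgat2, Fasn and Me1. Fasn, fatty acid synthase, had ratios between 0.00 and 2.08 (median 0.85) at 16 weeks and of -0.92, -1.37, -1.36 and -1.27 on the 4 arrays with a value at 20 weeks. The Fasn difference was -2.18 ± 0.36 (adjusted p = 0.000274), with -1.22 in NOD and 0.96 in the control (adjusted p = 0.00017). Dgat2, which makes triglycerides, fell by 2.28 ± 0.41, with 1.09 from the control, and Me1, malic enzyme, by 1.93 ± 0.52, with 1.54 from the control (adjusted p = 3.56e-07). Like Fasn, Dgat2 had a value on 4 arrays at 20 weeks. Further probes of Fasn (-0.87) and Dgat2 (-0.92 and -0.60) did not pass. Of 24 measured adipocyte genes 3 fell and none rose, against 4.97% of all genes. The mean adipocyte ratio of an array overlapped between the ages, from -1.50 to 0.35 at 16 weeks and from -1.39 to 0.81 at 20 weeks. Replicate 4 at 20 weeks was the highest of the 11 arrays. Rraga, a GTPase gene of nutrient sensing, fell by 1.35 ± 0.17 (adjusted p = 1.96e-05) with -1.31 in NOD and 0.04 in the control.

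Lists of other cell types and processes held few calls. Of 25 cytotoxic and NK cell genes 1 rose, Fcgr3 (0.70 ± 0.21), an Fc receptor gene that macrophages and neutrophils also express, and the chemokine gene Xcl1 (-0.80) and the protease gene Ctsw (-0.59) fell. Of 19 mast cell, basophil and eosinophil genes 1 rose, Hdc at 1.61 ± 0.45, which encodes the enzyme that makes histamine. Its NOD change was 1.95 and its control change 0.34. Among 26 immediate early genes Btg2 rose by 0.92 ± 0.21, while Jun (-0.83) and Zfp36 (-0.51) fell. Of 18 circadian clock genes Per1 (1.14) and Nfil3 (0.79) rose and none fell. Beside Des, the myosin gene Myh2 (-0.92 ± 0.26) was the other call among 20 skeletal muscle genes, with a NOD change of 0.08 and a control change of 1.0. Ngfr, the low affinity neurotrophin receptor, was the call among 19 nerve and glia genes and separated the ages (-1.39 ± 0.24, adjusted p = 0.000451). For 21 genes of liver-secreted proteins limma made no call of the ratio, 6 had an unadjusted p under 0.05, the median difference was 0.66, and 5 fell in the control channel. In the list of 11 genes tied to peripheral tissue antigens, Ins1, Ins2 and Deaf1 rose, and the initiation factor gene Eif4g3 fell by 0.49 ± 0.15.

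**Figure D4:**
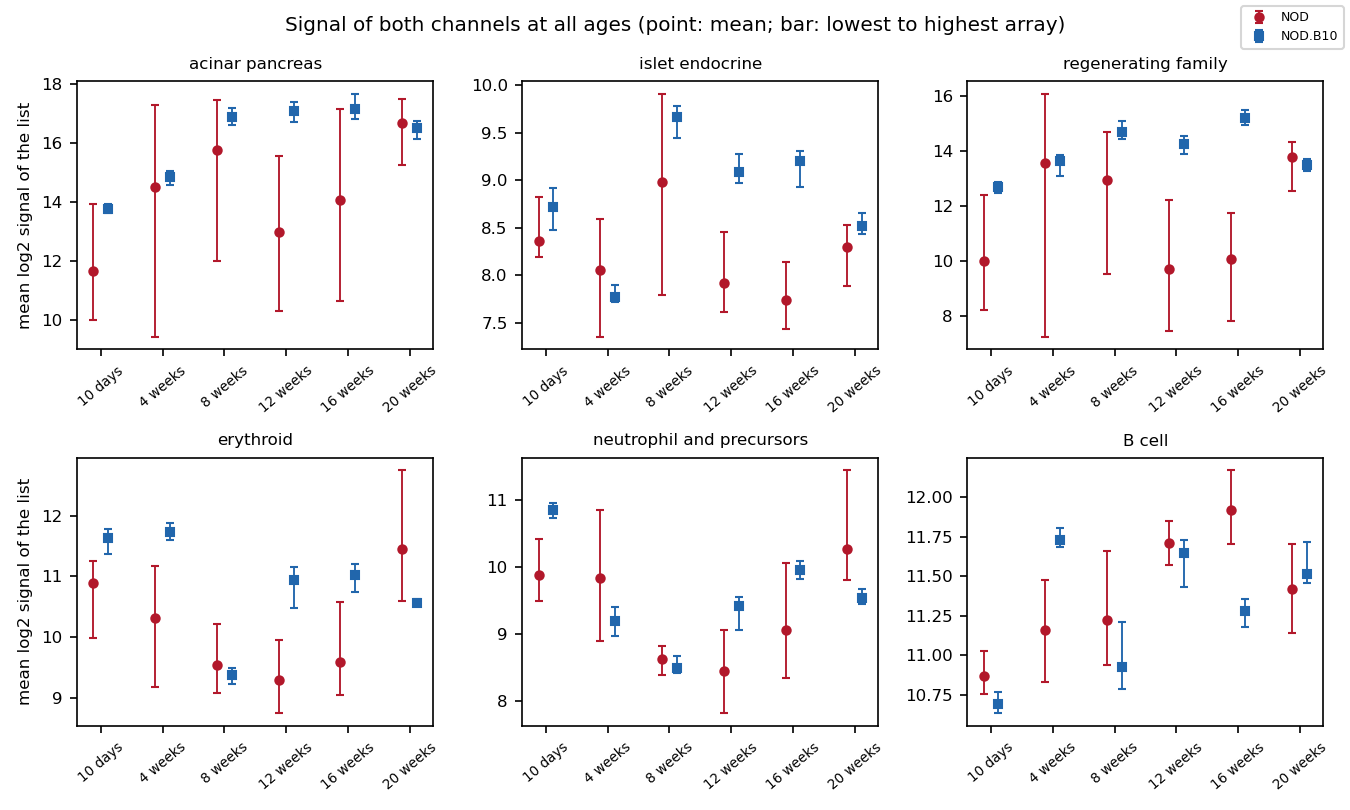
Mean log2 signal of 6 gene lists in the NOD (red) and NOD.B10 (blue) channels at all 6 ages, as the mean over arrays (point) and the lowest to highest array (bar). The control bars are short and differ between the arrays of the ages, while the NOD bars are mostly longer. For the islet list the control mean is 9.20 at 16 weeks and 8.52 at 20 weeks, and for the erythroid list 11.03 and 10.57.

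The control signal therefore differed between the arrays of the ages. Control RNA was pooled, and the labels do not tell which pool was on which array. A control value at an age is that of the pool on its arrays, and not necessarily of control mice of that age. The mean control signal of the acinar list was 13.76 at 10 days, 14.84 at 4 weeks, 17.18 at 16 weeks and 16.51 at 20 weeks. That of the islet list was 8.72, 7.78, 9.20 and 8.52 at these ages, and that of the erythroid list was 11.63, 11.73, 11.03 and 10.57. NOD means of the erythroid list were highest of all ages at 20 weeks (11.46), and single arrays overlapped with those at 10 days and 4 weeks.

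All 11 arrays were scanned on 1 day, on 3 scanners. Scanner 1 held 2 arrays of 16 weeks and 4 of 20 weeks, and scanner 4 held 3 and 1. Within scanners 1 and 4 the difference was 5.39 and 5.87 for Gcg, 3.45 and 2.65 for Alas2, and -1.71 and -1.81 for Glycam1. By limma 0 genes passed within either scanner, where 4179 and 4633 had an unadjusted p under 0.05.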

How the data were processed

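Pancreatic lymph node RNA was measured on 35 two-colour arrays, with NOD in Cy3 and pooled NOD.B10 in Cy5, and 11 of them (6 at 16 weeks, 5 at 20 weeks) enter the comparison. Agilent Feature Extraction 8.5 is named by the submitters' processing notes. The processed intensity of each channel was background-subtracted and dye-normalised within an array, per the file headers. The deposited log10 ratio equalled the negative of the scanner's own value and was used as an alternative.

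Computed here was the log2 ratio of the deposited processed intensities, NOD over NOD.B10. Control and outlier spots were left out, saturated spots kept, and a probe was used if 4 or more of the 35 arrays showed it clearly over background for NOD or for the control (40837 of 41174 probes). The brightest probe stood for a gene, giving 28436 genes, of which 19262 had a symbol. Symbols came from a GRCm38.p6 table, matched by accession for 21572 probes, by symbol for 5364 and by synonym for 4581, while 9657 kept the name in the file. limma 3.58.1 (lmFit, eBayes) fitted 1 mean per age over all 35 arrays, with Benjamini-Hochberg adjustment at 0.05. Both channels were normalised together (Aquantile) so that their differences add up to that of the ratio. The mean of a list on an array was taken over its members with a value on all 35 arrays. Median replicate SDs were 0.42 and 0.416 (ratio), 0.403 and 0.495 (NOD), and 0.367 and 0.302 (control) at 16 and 20 weeks.

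The naming rule took the highest and lowest differences of the ratio and of each channel among called, non-overlapping, measurable genes, up to 4 called members per list, and a fixed set around insulin, Foxp3 and MHC, of which the genes of best known role are printed. Members and the 36 lists were chosen with earlier results of these data known. Alternatives covered background correction, normalisation, filters, probes, blocks, the acinar term and each array left out, and the model was tested on simulated data. Figures used matplotlib 3.10.9.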

Additional observations from a re-analysis of the deposited data

Results flagged for a closer look

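Within an age, single arrays stood apart from the others by Dixon's criterion for 11 of 202 groups of gene values and 5 of 72 groups of list means, where chance alone marks about 1 in 20. Replicate 5 at 16 weeks was the highest array for Ins1 (-1.47, nearest -4.72), Ins2 (-2.04, nearest -6.73), the duct and epithelium mean (-0.19, nearest -0.96) and the mean of genes regulating peripheral tissue antigens (0.016, nearest -0.76). It was the lowest for Ifng (-1.98, nearest -0.44). Replicate 3 at 20 weeks was the lowest for Ins2 (-3.54, nearest 1.0) and Col4a1 (-0.62, nearest -0.22).

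Replicate 6 at 16 weeks was the highest for Ctsg (0.77, nearest -1.45), Hspa8 (0.51, nearest 0.04) and the liver-secreted mean (-0.11, nearest -0.65). Replicate 4 at 16 weeks was the highest for Ccl2 (2.28, nearest 1.60). Replicate 2 at 16 weeks was the highest for Col6a1 (3.97, nearest 2.08). At 20 weeks, replicate 1 was the highest for Ccr6 (-0.79, nearest -1.20) and the liver-secreted mean (0.91, nearest -0.14), and the lowest for the regenerating family mean (-1.04, nearest 0.41). Replicate 5 was the lowest for Ighm (-0.94, nearest -0.24).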

How the results depend on the processing

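Counts of called genes moved with the arrays used. The 2465 calls of the ratio were 1020 at an absolute difference of at least 1, 1258 with only the 11 arrays in the model, 1477 with arrays of the shared scan day only, and 780 with the acinar ratio as a covariate, or 4 when that fit used only the 11 arrays (limma; 2515 at an unadjusted p under 0.05). Within scanner 1 and within scanner 4 they were 0 (4179 and 4633 unadjusted). Without each replicate in turn they ran from 1402 to 2896, and fell by over 1.5 times without replicate 3 (1402) or 5 (1460) at 20 weeks. Other background corrections, filters and probe rules, and blocks by scan day, scanner or software version, gave 1945 to 2808, and array weights 3355. With normexp and loess 16 of 23 list medians moved closer to 0 by over 1.5 times, as given above.

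The 150 calls of the NOD channel were 22 with only the 11 arrays, 269 with the scan day and 283 with the scanner as a block. They were 11 to 276 without a replicate: 60, 61, 77 and 84 without replicate 1, 3, 4 and 6 at 16 weeks, and 276, 11, 91 and 57 without replicate 1, 2, 3 and 5 at 20 weeks. The 262 calls of the NOD.B10 channel were 166 after 75th percentile scaling, 110 at a difference of at least 1, 556 with the scan day and 651 with the scanner as a block (344 higher, 307 lower). They were 144 to 273 without a replicate: 161 without replicate 6 at 16 weeks, and 166, 144, 159 and 169 without replicate 1, 2, 3 and 5 at 20 weeks.

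The labels state no pairing of the arrays by replicate number. Deviations from the age mean correlated at -0.0002 to 0.143 for same-numbered arrays and at -0.234 to 0.272 for the others. These values do not decide whether arrays were paired. With the replicate block 151 genes were called for the ratio, 0 for NOD (limma; 3367 unadjusted) and 13 for NOD.B10, and 38 of 90 called text genes kept their call.

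Among 101 genes followed through these settings 6 values changed sign. They were Cd3e with the mean of its probes (-0.037) and within scanner 1 (-0.046), and Il2 with the mean of probes (0.14) and within scanner 4 (0.093). The others were Ifng within scanner 4 (0.98) and with the acinar covariate on the 11 arrays (0.33). Some genes named above, such as Siglec1, Hdc and Ngfr, were not followed in this way. Cd3e, Il2 and Ifng were not called. The cause of these moves was not tested.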
